A study of Rattus norvegicus with 16 samples.

Results

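The stomach and the middle part of the intestine of control rats were compared at the end of the suckling period, to learn which genes and functions separate both tissues. The comparison holds 8 of the 16 arrays of the study, 4 stomachs and 4 samples from the middle part of the intestine, and each array carried the RNA of 1 tissue of 1 rat. All rats were Wistar, given as Wistar Han in the study's methods. The control group, named C, received saline by oral gavage in 2 daily doses over days 14 to 21 of life, and tissue was taken on day 21. The other 8 arrays came from the same organs of rats given obestatin at 250 nmol per kg body weight on the same schedule, the group named OH. Obestatin is a peptide cut from the same precursor as ghrelin. Pups stayed with their mothers and suckled until tissue was taken. The sources used here do not say which region of the stomach was sampled, and the RNA came from tissue rather than from sorted cells. In such samples fewer cells of a type and less RNA per cell cannot be told apart.

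The rat stomach has a forestomach lined by stratified squamous epithelium and a glandular stomach whose parietal cells secrete acid, whose chief cells secrete proenzymes and whose surface cells secrete a protective mucus. The small intestine digests and absorbs. Its enterocytes carry hydrolases and transporters on a brush border, its goblet cells secrete mucus, and its Paneth cells secrete antimicrobial peptides at the base of the crypts. The regional identity of both epithelia is set by transcription factors, SOX2 in the foregut and CDX2 in the intestine being the best known. Around weaning the enterocyte exchanges lactase, the enzyme for milk sugar, for sucrase-isomaltase, the enzyme for solid food.

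Every value below is the log2 ratio of the tissue (Cy5 dye) to a common reference pool of RNA from the rats of the study (Cy3 dye) on the same array. A value of 0 means equal processed signals in both dyes. It need not be the level of the pool, since no dyes were swapped and either signal can lie near background. A difference is C stomach minus C middle intestine and is positive where the stomach was higher. A probe was called when limma's moderated test gave a Benjamini-Hochberg adjusted p under 0.05. Of 21174 probes tested, 9517 were called (44.9%), 4796 higher in stomach (22.7%) and 4721 lower (22.3%). The 4 arrays of one tissue all lay above the 4 of the other for 9260 probes (43.7%). Where several probes of a gene were tested, the probe brightest in Cy5 stands for the gene, and the others are given where their calls differed. Probes with the same call could still differ in size, and for several genes these sizes are given too. A difference of at least 10-fold was met by 386 of the probes called higher and by 292 of those called lower. The median over all probes was -0.01, and each count within a gene list below stands against these shares.

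The arrays of each tissue resembled each other far more than those of the other tissue. Correlations across probes ran from 0.802 to 0.943 within C stomach, from 0.77 to 0.894 within C middle intestine, and from 0.0928 to 0.237 between them. Each of the groups was hybridised on a slide of its own, so the slide and the tissue cannot be told apart. The same reference pool, which should read alike on every array, differed in Cy3 between both slides for 2050 probes (9.68%) at an adjusted p under 0.05, and for 109 probes by more than 1 on the log2 scale. The ratio and the Cy5 signal alone had the same sign for 99.1% of the called probes and 87.6% of all probes, and 90 called probes had opposite signs. Since the ratio contains the Cy5 signal, such sharing of signs is largely built in and cannot show what the reference contributed. For each gene named whose Cy3 differed by more than 1 on the log2 scale, the Cy5 difference is given beside the ratio, and what Cy3 contributed to the ratio was not tested. The sizes of differences also moved with the background and dye correction. In an alternative, background was corrected by normexp with an offset of 50 added to both channels, and dyes by loess. With it 40 of the 139 named genes with a difference of at least 1 shrank by more than 1.5 times and none grew by as much. All of them kept their sign.

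C stomach replicate 2 stood apart from the other 3 stomach arrays. It had the lowest mean of squamous and striated muscle genes and the highest mean of parietal and chief cell genes among them. Gast, the gene of the antral hormone gastrin, read 4.51, -2.01, 4.26 and 4.73 in the 4 stomach replicates. Many of the results that rest on this array are given with and without it.

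Genes of the glandular stomach showed the largest differences. All 11 tested genes of the gastric mucous cell list were higher in stomach, with a median difference of 7.01 on the log2 scale, against -0.01 for all probes. All 6 chief cell genes and 12 of 13 parietal cell genes were higher too, with medians of 4.54 and 5.33. No gene of these lists was lower.

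Among the mucous cell genes, Gkn2 and Gkn1 encode gastrokines, small secreted proteins of the surface mucus. Gkn2 read 4.49, 3.82, 4.27 and 4.16 in C stomach and -5.58, -5.44, -5.88 and -5.41 in C middle intestine. The groups were far from overlapping, and the difference of 9.76 ± 0.23 (SE, adjusted p = 5.35e-13) was the largest of any gene in the ratio, though not in Cy5. Gkn1 differed by 9.14 ± 0.22 (adjusted p = 8.46e-13). For both, the reference signal was also lower on the stomach slide, and the Cy5 signal alone differed by 6.13 for Gkn2 and 5.85 for Gkn1. Tff1, a trefoil peptide that is secreted with the surface mucin, differed by 8.14 in the ratio and by 4.15 in Cy5. Muc5ac, the surface mucin itself, was not well above background on any array of the intestine. Its means were 3.41 in C stomach and -1.83 in C middle intestine, and the stomach level was at least 32.02-fold higher (adjusted p = 5.83e-10). In such a bound the dim tissue is raised to the lowest signal well above background on its array, and the smaller of the folds in Cy5 and in the ratio is given. Since no dyes were swapped it is open to dye bias, and it holds for the deposited signals only, as do all such bounds below. Muc5ac had a reference signal 4.17 higher on the stomach slide, and its Cy5 signal alone differed by 9.40. With normexp its ratio differed by 3.41.

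Tff2, the trefoil peptide of neck and pyloric gland cells, was uneven among the stomachs, with 3.73, 0.91, 3.42 and 3.17. The array that stood apart was the low one, yet it too was above all intestinal arrays, which lay between -5.50 and -5.14. The difference was 8.06 ± 0.61 (adjusted p = 9.53e-08), and 8.69 without that array, while Cy5 alone differed by 6.59. Gkn3, Ctse (cathepsin E) and Cldn18, a tight junction protein of the gastric mucosa, differed by 7.01, 6.92 and 6.67. Vsig1, a junctional adhesion protein of gastric epithelium, differed by 7.46.

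Among the chief cell genes, Chia encodes an acidic chitinase of the stomach and Cblif the intrinsic factor that binds vitamin B12. Chia read 3.60, 6.19, 3.56 and 2.85 in C stomach and was not well above background on any intestinal array, where it read -5.46, -5.34, -5.22 and -5.96. Replicate 2 was the highest of the stomachs. The stomach was at least 747.2-fold higher (adjusted p = 3.69e-08), with means of 4.05 and -5.50. The difference in Chia was 9.55, 8.83 without replicate 2 and 7.02 with normexp. Cblif differed by 8.07 ± 0.46, also with its highest value, 4.93, in replicate 2, and by 7.6 without that array. Pgc, the gene of progastricsin, was even across the stomachs, from 2.50 to 2.99, and differed by 4.80 ± 0.12 (adjusted p = 1.02e-12) and by 6.07 in Cy5. Cym, which encodes the milk-clotting enzyme chymosin, was 19.4-fold higher in stomach, a difference of 4.28 in the ratio and of 2.60 in Cy5. Bhlha15, a transcription factor of mature chief cells, was 3.44-fold higher (adjusted p = 0.0201), and it was the only chief cell gene to lose its call when replicate 2 was left out (1.16, adjusted p = 0.0548). Bhlha15 also lost it without C middle intestine replicate 4 (1.61, adjusted p = 0.0532).

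In parietal cells the proton pump consists of the catalytic subunit Atp4a and the subunit Atp4b. Atp4a read 0.99, 1.56, 0.94 and 0.41 in C stomach and between -3.60 and -3.38 in C middle intestine. It was 21.9-fold higher in stomach (adjusted p = 3.41e-10), and Atp4b was 53.1-fold higher (adjusted p = 1.51e-09), a difference of 5.73 in the ratio and of 4.68 in Cy5. The potassium channel subunit Kcne2, which recycles potassium for the pump, differed by 7.99 ± 0.28, the largest difference of the list, while its partner Kcnq1, which many tissues use, differed by 2.09. The chloride carrier Slc26a7 and the sodium-proton exchanger Slc9a4 were not well above background on any intestinal array and were at least 33.32-fold and 65.81-fold higher (means 5.93 and 0.33, then 2.91 and -3.38; adjusted p = 6.32e-09 and 2.66e-08). With normexp their differences were 1.74 and 3.15, against 5.61 and 6.29. Cckbr, the gastrin receptor, was 44.8-fold higher, a difference of 5.48, and of 2.39 with normexp. A second probe of Cckbr differed by 2.03. The exception was Slc4a2, the basolateral anion exchanger, at -0.22 (adjusted p = 0.333), although a second, dimmer probe of Slc4a2 was higher in stomach by 2.24 (adjusted p = 8.84e-07).

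**Figure D1:**
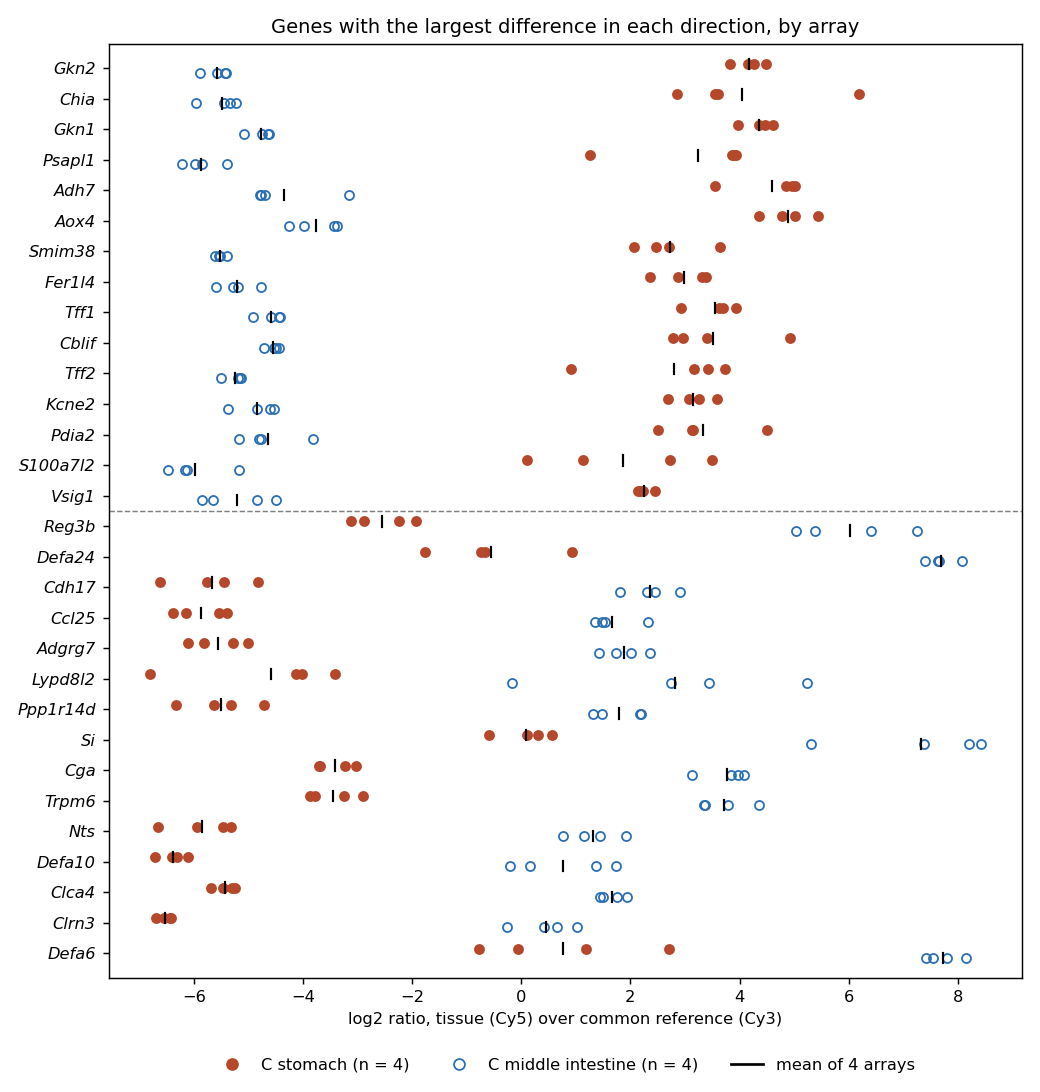
The horizontal axis is the log2 ratio of tissue over common reference for the 15 genes with the largest difference in each direction, with 1 point per array (filled, C stomach; open, C middle intestine; n = 4 each) and a tick at each mean. For every gene shown the arrays of the tissues do not overlap, and single stomach arrays stand off in Chia (6.19), Psapl1 (1.26) and Tff2 (0.91).

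Promoters of 6 genes from both ends of the comparison are printed, because these genes stood among those that separated the tissues, to show the letters just upstream of their starts. They are the 250 bases before the start in RefSeq on GRCr8, read along the gene's strand. The intestinal ones are sucrase-isomaltase (Si), chr2:159884903-159885152, minus strand, lactase (Lct), chr13:42376873-42377122, minus strand, and carbamoyl phosphate synthetase (Cps1), chr9:76063613-76063862, plus strand. The gastric ones are Atp4a, chr1:95088872-95089121, plus strand, Gkn1, chr4:121352706-121352955, minus strand, and Chia, chr2:196302437-196302686, plus strand. Capitals mark matches, on either strand, to 3 short words. They are TTTATG for CDX2 sites, CAAAGTCCA for HNF4 sites and AGATAA for sites of the GATA family.
Si: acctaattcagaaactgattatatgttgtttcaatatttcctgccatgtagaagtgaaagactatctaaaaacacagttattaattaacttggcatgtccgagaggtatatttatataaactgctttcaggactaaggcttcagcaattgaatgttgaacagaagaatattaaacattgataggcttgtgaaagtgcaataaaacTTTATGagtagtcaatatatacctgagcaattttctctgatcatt
Lct: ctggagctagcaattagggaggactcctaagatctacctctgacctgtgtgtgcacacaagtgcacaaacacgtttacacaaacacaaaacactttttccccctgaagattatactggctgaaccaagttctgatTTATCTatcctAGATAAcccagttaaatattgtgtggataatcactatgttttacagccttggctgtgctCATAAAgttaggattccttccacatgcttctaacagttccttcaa
Cps1: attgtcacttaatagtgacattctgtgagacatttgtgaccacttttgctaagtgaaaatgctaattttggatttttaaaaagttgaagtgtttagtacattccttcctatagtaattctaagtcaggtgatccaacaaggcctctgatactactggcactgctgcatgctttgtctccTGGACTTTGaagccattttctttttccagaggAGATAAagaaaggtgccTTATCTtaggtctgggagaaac
Atp4a: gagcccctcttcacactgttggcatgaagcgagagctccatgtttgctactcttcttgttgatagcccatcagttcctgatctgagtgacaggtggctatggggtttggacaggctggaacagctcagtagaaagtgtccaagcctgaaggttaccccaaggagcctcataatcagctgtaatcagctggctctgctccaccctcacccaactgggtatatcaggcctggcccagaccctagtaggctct
Gkn1: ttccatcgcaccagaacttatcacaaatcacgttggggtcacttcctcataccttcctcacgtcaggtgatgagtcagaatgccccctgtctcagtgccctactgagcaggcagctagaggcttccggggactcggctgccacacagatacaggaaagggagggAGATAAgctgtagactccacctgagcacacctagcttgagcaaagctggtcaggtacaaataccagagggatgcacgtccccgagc
Chia: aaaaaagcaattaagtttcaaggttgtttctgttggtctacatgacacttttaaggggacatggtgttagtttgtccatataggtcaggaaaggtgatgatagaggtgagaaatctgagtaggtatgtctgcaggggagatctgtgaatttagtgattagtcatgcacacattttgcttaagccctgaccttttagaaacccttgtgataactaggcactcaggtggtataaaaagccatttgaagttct

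Si and Lct each held the CDX2 letters at position -45 from the start, on opposite strands, and Cps1 held the HNF4 letters at -71. The GATA letters stood at -115 and -104 in Lct, at -39 and -22 in Cps1 and at -86 in Gkn1. Atp4a and Chia held none of the 3. TTTATG was found in 6.53% of the promoters of 10995 tested genes and in 10 of 58 (17.2%) promoters of the genes of the enterocyte, goblet and Paneth lists that were lower in stomach. It was found in 1 of 27 (3.7%) promoters of the gastric gland and surface genes that were higher, but in 2 of 12 (16.7%) of the squamous genes and 3 of 9 (33.3%) of the pancreas genes that were higher. AGATAA was found in 6.18% of the promoters of tested genes, 19.0% of the intestinal and 11.1% of the gastric gland and surface ones, and CAAAGTCCA in 0.355%, 3.45% and none. Over all 27457 promoters, with genes not tested included, the shares were higher for TTTATG (11.2%) and AGATAA (10.0%) and alike for CAAAGTCCA (0.331%). A match describes letters only and is not a bound site.

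Transcription factors of the foregut and the intestine divided between the tissues. Cdx2 read -5.36, -5.32, -5.39 and -5.29 in C stomach and 1.52, 1.82, 1.34 and 1.51 in C middle intestine. No stomach array came near an intestinal one, and the difference was -6.89 ± 0.11 (adjusted p = 1.47e-14). Sox2 read between -0.17 and 0.62 in C stomach and between -4.11 and -3.63 in C middle intestine, 17.9-fold higher in stomach (adjusted p = 5.3e-09). Of 12 tested foregut factors 7 were higher in stomach, among them Irx2 at 4.61, Foxq1, known for a role in surface mucous cells, at 3.85, and Barx1, a factor of the stomach mesenchyme, at 2.55. A second probe of Irx2 differed by 1.64. Nkx2-3, a factor of the gut wall, was lower at -1.18 (adjusted p = 0.000286).

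Of 21 tested intestinal factors 14 were lower in stomach and 2 higher. Osr2 read -2.25 to -0.61 in C stomach, below the 2.88 to 3.48 of C middle intestine, a difference of -4.47 ± 1.00 (adjusted p = 0.00235) in the ratio and of -5.49 in Cy5. Creb3l3, a factor that controls lipid genes, differed by -4.20 ± 0.16, and Hnf4g, an enterocyte nuclear receptor, by -3.88 ± 0.29. The related Hnf4a, which the stomach also uses, differed by only -0.95 (adjusted p = 0.00125), and Vdr, the vitamin D receptor, by -1.90 in the ratio and -2.91 in Cy5. Gata4, known in both organs, was 1.8-fold higher in stomach, and the probe for Cdx1 was higher by 0.37 (adjusted p = 0.0226), while in Cy5 alone it differed by 0.04. The call of Cdx1 was narrow, with an adjusted p of 0.0516 to 0.0669 without C stomach replicate 4 or C middle intestine replicate 1 or 3. Gata6 differed by -0.06 (adjusted p = 0.882). For Pdx1, a factor of antrum and duodenum, the stomach replicates read -0.47, -3.89, -0.94 and -0.11, with replicate 2 below every intestinal array, and its difference of 1.17 did not pass the test (adjusted p = 0.369), nor did that of 2.02 without replicate 2 (adjusted p = 0.109).

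Hox genes, which mark position along the body axis, leaned towards the intestine. Of 13 tested, 6 were lower in stomach and none higher, with a median of -0.90. Hoxb6, Hoxb7 and Hoxa7 were the lowest at -2.13, -2.10 and -1.95. In the OH rats none of the 13 passed the test, with a median of -0.22.

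Genes of the brush border, of nutrient transport and of fat absorption were mostly lower in stomach. Of 17 brush border enzymes 15 were lower and none higher, with a median of -3.68, and 18 of 22 nutrient transporters (median -3.08) and 15 of 17 fat absorption genes (median -2.52) were lower too. Si read 7.38, 8.43, 8.21 and 5.32 in C middle intestine and was not well above background on any stomach array, where it read 0.30, 0.10, -0.60 and 0.57. The intestine was at least 116.7-fold higher (adjusted p = 6.61e-08), with means of 7.33 and 0.09. The difference in Si was -7.24, and -3.67 with normexp. Lct, the suckling counterpart of Si, read -1.32, -1.17, -0.20 and -0.91 in C middle intestine and between -3.81 and -3.46 in C stomach, a difference of -2.70 ± 0.50 (adjusted p = 0.000532). Both enzymes were thus measured above background on all intestinal arrays on the same day of life.

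Replicate 4 of C middle intestine was the low array for the brush border list, with a mean of 0.08 where the other 3 had 0.61 to 1.13, and for nutrient transporters, with 0.03 against 0.52 to 1.05. It was not the low one for fat absorption or for the suckling enterocyte list. In the intestine Cubn, the cobalamin receptor cubilin, read 3.77, 3.49, 4.57 and 0.12, and its partner Amn read -1.28, -0.82, -0.19 and -0.96. Cubn in replicate 4 lay within the range of the stomachs, which was -0.53 to 0.23, while Amn did not. Cubn differed by -3.15 ± 0.75 (adjusted p = 0.00367) in the ratio and by -4.26 in Cy5, and Amn by -3.36 ± 0.40. With normexp Cubn differed by -1.59 and lost its call (adjusted p = 0.052).

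Of the peptidases, Mme (neprilysin) differed by -6.55 and the meprin subunit Mep1b by -5.41, whereas Dpp4 differed by -1.21 (adjusted p = 0.00233). Anpep, the aminopeptidase N, read -1.04, -1.39, 0.25 and -1.61 in C middle intestine and -2.56, -1.37, -2.57 and -2.94 in C stomach. Those groups overlapped, and the difference of -1.41 did not pass the test (adjusted p = 0.0895). Nor did that of Tmprss15, the trypsinogen activator enteropeptidase, at -2.03 ± 1.13 (adjusted p = 0.157). Alpi, the intestinal alkaline phosphatase, was 19.5-fold lower in stomach, and Ggt1, the gamma-glutamyl transferase, 18.9-fold. The difference in Alpi was -4.29, and its second probe differed by -1.8.

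Sugar and peptide carriers followed. Slc2a2, the basolateral glucose transporter, read -6.12, -6.00, -6.29 and -6.19 in C stomach and -1.05, 0.04, 0.91 and -0.46 in C middle intestine, a difference of -6.01 ± 0.43 (adjusted p = 5.02e-08). Slc15a1, the peptide transporter of the brush border, differed by -6.11, the fructose carrier Slc2a5 by -4.03 and the sodium-glucose carrier Slc5a1 by -2.26. The 3 probes of Slc15a1 ranged from -6.11 to -2.48. Slc7a9 and Slc3a1, the subunits of the cystine carrier, differed by -5.85 and -4.87. Slc34a2, the phosphate carrier, was not well above background in stomach and was at least 29.59-fold higher in intestine (means -4.47 and 1.12, adjusted p = 5.33e-07), with a difference of -5.59, and of -1.76 with normexp. Iron export and uptake genes did not pass the test, Slc40a1 at -0.59 (adjusted p = 0.367) and Slc11a2 at -0.40 (adjusted p = 0.411). Trpm6, the magnesium channel, was not well above background in stomach and was at least 114.2-fold higher in intestine (means -3.46 and 3.72, adjusted p = 1.84e-10). The difference in Trpm6 was -7.17, and -3.31 with normexp, and its second probe differed by -3.99.

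Genes that pack dietary fat were lower in stomach as a group. Mttp, which loads lipid onto apolipoprotein B, read -4.80, -4.71, -4.93 and -4.85 in C stomach and -0.19, 0.48, 0.42 and 0.22 in C middle intestine. No overlap was seen and the difference was -5.05 ± 0.17 (adjusted p = 2.42e-11). Npc1l1, the cholesterol importer, differed by -5.07, Abcg5, a sterol exporter, by -5.60, Fabp1 by -4.58 and Apob by -3.55. Fabp2, by contrast, was 2.95-fold lower (adjusted p = 0.0358), had its lowest stomach value, -3.18, in replicate 2, and lost its call without it (-1.04, adjusted p = 0.115). It lost the call also without C stomach replicate 3 or without C middle intestine replicate 2, 3 or 4 (adjusted p of 0.0502 to 0.0953). Cd36 differed by 0.15 (adjusted p = 0.697), with a second probe of Cd36 at -0.73 (adjusted p = 0.021), and Dgat2 by -0.59 (adjusted p = 0.298), or by -0.24 without C stomach replicate 2 (adjusted p = 0.676).

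Bile acid recovery genes split. Slc51a and Slc51b, the basolateral bile acid exporter, differed by -5.85 and -3.56, and Fabp6, the ileal bile acid binding protein, by -4.85. Nr0b2, a nuclear receptor of bile acid feedback, was 7.83-fold higher in stomach (adjusted p = 2e-06), and Abcc3, a basolateral exporter, 3.73-fold (adjusted p = 0.00172).

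Genes that make citrulline and arginine in the suckling intestine divided along the pathway. Cps1 read -5.12, -4.67, -4.83 and -5.58 in C stomach and 0.48, 0.54, 0.86 and 0.71 in C middle intestine, a difference of -5.70 ± 0.25 (adjusted p = 2.87e-10). Otc, the next enzyme, differed by -6.16 ± 0.26. Oat and Aldh18a1, which supply ornithine, differed by -3.43 and -2.06. The last enzymes, Ass1 and Asl, did not share that direction, with 0.55 for Ass1 (adjusted p = 0.0291) and 0.35 for Asl (adjusted p = 0.1). Without any one of C stomach replicates 1 and 4 or C middle intestine replicates 1, 2 and 3, Ass1 had an adjusted p of 0.0558 to 0.0821. Asl was called without C middle intestine replicate 4 (0.53, adjusted p = 0.0091).

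**Figure D2:**
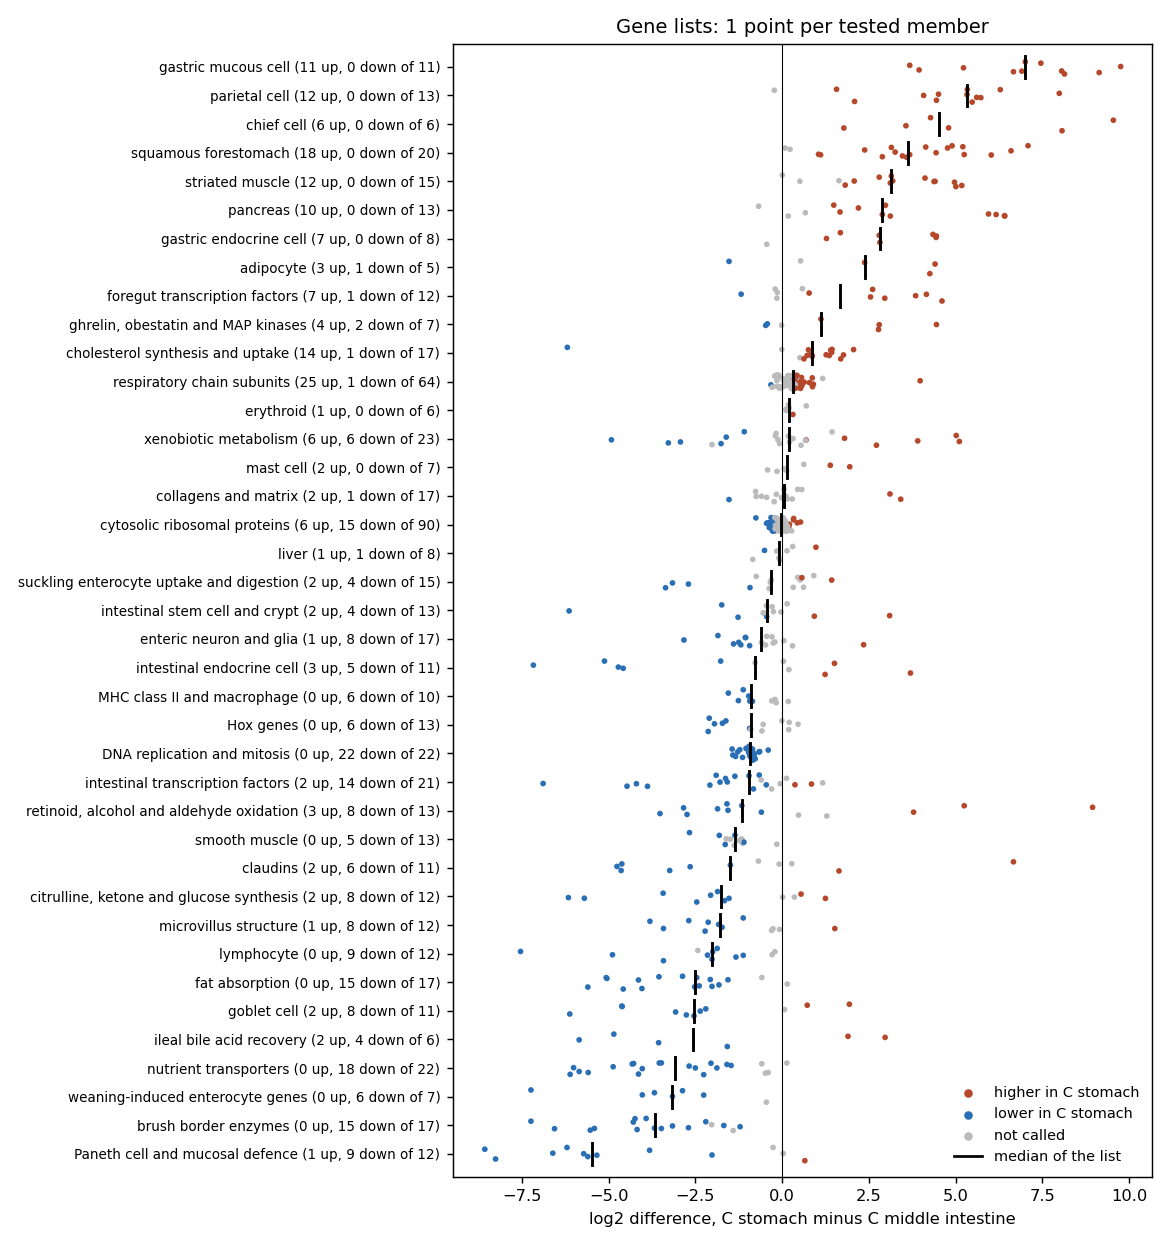
The horizontal axis is the log2 difference, C stomach minus C middle intestine, with 1 point per tested member of each gene list. Gastric mucous, chief and parietal lists lie on the positive side with medians of 7.01, 4.54 and 5.33, brush border and Paneth lists on the negative side with medians of -3.68 and -5.47, and ribosomal proteins around -0.04.

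Paneth and defence genes had the most negative median of all lists, -5.47, with 9 of 12 lower in stomach and 1 higher. Reg3b, a bactericidal lectin, read 7.25, 5.38, 6.41 and 5.04 in C middle intestine and -2.88, -1.93, -2.25 and -3.12 in C stomach. The difference of -8.57 ± 0.49 (adjusted p = 5.34e-09) was the most negative of any gene in the ratio. In Cy5 alone Reg3b differed by -10.02, and several α-defensins by more. Defa24, an α-defensin, read 7.64, 8.08, 7.40 and 7.66 in C middle intestine and -0.74, -1.77, 0.94 and -0.68 in C stomach, a difference of -8.26 ± 0.60 in the ratio and of -13.59 in Cy5 alone. Defa10 and Defa6 differed by -7.15 and -6.97 in the ratio, and Defa6 by -14.62 in Cy5. The α-defensins are near-identical in sequence, so their probes may share signal and single members are uncertain. Defa5 read between -4.78 and -4.30 on all 8 arrays and differed by -0.26 (adjusted p = 0.0944). Lyz2, a lysozyme, differed by -5.72, Itln1, the microbe-binding intelectin, by -6.61, and Mmp7, the protease that activates α-defensins in mice, by -5.60. In Cy5 alone Itln1 differed by -10.74 and Mmp7 by -7.25. Pigr, the receptor that carries immunoglobulin A, was higher in stomach by 0.66 (adjusted p = 0.0476) on its brightest probe. The other 3 probes of Pigr gave 0.35, 0.54 and 4.01, with adjusted p of 0.266, 0.103 and 1.82e-06. The brightest lost its call without C stomach replicate 2, 3 or 4 or C middle intestine replicate 1 or 3 (0.44 to 0.72, adjusted p of 0.0552 to 0.147).

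Goblet cell genes were lower in stomach for 8 of 11 and higher for 2. Muc2, the intestinal mucin, was not well above background on any stomach array and at least 18.03-fold higher in intestine (means -3.19 and 1.43, adjusted p = 6.92e-07), a difference of -4.62, and of -1.30 with normexp. Tff3, the intestinal trefoil peptide, differed by -6.12 and Atoh1, the secretory lineage factor, by -3.07. The higher ones were Agr2, a disulfide isomerase needed for mucin folding, at 1.94 (adjusted p = 0.00122) and Spdef, a factor of goblet cell maturation, at 0.72 (adjusted p = 0.0481). Spdef lost its call without C stomach replicate 1, 2 or 4 or C middle intestine replicate 3 or 4 (adjusted p of 0.0539 to 0.154). The mucins and trefoil peptides thus split by organ, with Muc5ac, Tff1 and Tff2 in stomach and Muc2 and Tff3 in intestine.

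The lymphocyte list, which also holds the chemokine Ccl25, had 9 of 12 tested genes lower in stomach and none higher, with a median of -2.01. Ccl25, the chemokine that draws lymphocytes to the small intestine, read -6.38, -6.14, -5.40 and -5.55 in C stomach, not well above background, and 1.53, 1.48, 2.32 and 1.34 in C middle intestine. The intestine was at least 174.3-fold higher (means -5.87 and 1.67, adjusted p = 2.42e-11). The difference in Ccl25 was -7.54, and -3.88 with normexp. Its receptor Ccr9 differed by -0.29 (adjusted p = 0.324). Cd3g and Cd3e, subunits of the T cell receptor complex, differed by -4.89 and -3.42, the latter by -0.71 with normexp. Of 10 MHC class II and macrophage genes 6 were lower, among them the class II activator Ciita at -1.55.

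Adhesion and surface genes were among the most negative of all. Cdh17, the liver-intestine cadherin, read between -6.63 and -4.83 in C stomach and between 1.82 and 2.90 in C middle intestine, a difference of -8.03 ± 0.33 (adjusted p = 1.51e-10). The adhesion receptor Adgrg7 differed by -7.44, Clca4 by -7.08 and Lypd8l2 by -7.40 ± 1.12, the last with -0.17 in intestinal replicate 4 against 2.74 to 5.23 in the other 3. A second probe of Lypd8l2 differed by -2.42. Ppp1r14d and Clrn3 were not well above background in stomach and at least 156.2-fold and 126.7-fold higher in intestine (means -5.50 and 1.79, then -6.53 and 0.46; adjusted p = 4.46e-10 and 1.04e-08). With normexp their differences were -4.53 and -4.51, against -7.29 and -6.98. Cga, the shared subunit of the pituitary glycoprotein hormones, differed by -7.18 ± 0.22 in the ratio and by -8.96 in Cy5 alone. Claudins, the tight junction strands, also split, with Cldn15, Cldn3 and Cldn7 at -4.76, -4.63 and -4.62 and Cldn18 and Cldn1 higher in stomach.

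Hormone genes divided by organ. Of 8 gastric endocrine genes 7 were higher in stomach, and of 11 intestinal ones 5 were lower and 3 higher. Ghrl, the shared precursor of ghrelin and obestatin, read 3.12, 3.73, 2.91 and 2.97 in C stomach and -1.40, -1.76, -0.73 and -1.17 in C middle intestine. It was 21.8-fold higher in stomach (difference 4.45 ± 0.39, adjusted p = 5.14e-07), and Mboat4, the enzyme that acylates ghrelin, was 6.95-fold higher (adjusted p = 9.89e-06). Hdc, the histamine enzyme of enterochromaffin-like cells, was 20.4-fold higher. Gast was 4.44 higher with all arrays (adjusted p = 0.0189) and 6.07 higher without replicate 2. Its call was lost without C stomach replicate 1, 3 or 4 (adjusted p of 0.0544 to 0.0588). In the intestine Nts (neurotensin), Gip, Cck and Sct (secretin) differed by -7.17, -5.12, -4.72 and -4.58, each with no overlap. Pyy, the gene of peptide YY, was higher in stomach by 1.51 (adjusted p = 0.0159), and Isl1, an endocrine factor, by 3.69. Without C stomach replicate 4 Pyy had an adjusted p of 0.0562, and without C middle intestine replicate 1 of 0.051.

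The study named Gpr39 and Glp1r as debated obestatin receptors and measured Map2k3 and Mapk3, kinases of MAP kinase cascades. Gpr39 was 2.18-fold higher in stomach (adjusted p = 5.89e-05), with 1.48 to 1.58 in C stomach and 0.19 to 0.67 in C middle intestine. Glp1r was 6.87-fold higher (adjusted p = 8.38e-09), a difference of 2.78, and of 1.46 with normexp. A second probe of Glp1r differed by 4.57. Mapk3 read -0.07, -0.13, -0.24 and -0.24 in C stomach and 0.23, 0.50, 0.03 and 0.27 in C middle intestine, a difference of -0.43 ± 0.11 (adjusted p = 0.00518), and Map2k3 differed by -0.47 ± 0.14 (adjusted p = 0.0157). Map2k3 lost its call without C stomach replicate 2 (-0.36, adjusted p = 0.0522) or C middle intestine replicate 2 (-0.35, adjusted p = 0.0564). These were small beside the tissue markers although the groups did not overlap.

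Squamous genes were higher in stomach for 18 of 20 and lower for none, with a median of 3.63. Sprr1a, a cornified envelope protein, read 1.58, 0.83, 2.89 and 2.17 in C stomach and between -5.37 and -5.06 in C middle intestine, a difference of 7.09 ± 0.38 (adjusted p = 2.6e-09). The keratins Krt10, Krt13 and Krt1 differed by 6.60, 5.25 and 5.21. Krt13 read 1.86, 0.04, 2.32 and 1.81 in C stomach, and the low array was again replicate 2, without which Krt13 differed by 5.74. Tp63, the factor of squamous basal cells, differed by 0.23 (adjusted p = 0.126), with stomach values of 0.02 to 0.29 and intestinal values of -0.21 to 0.13. The other probe of Tp63 read 1.25, 0.33, 1.96 and 1.46 in C stomach and -6.65, -5.83, -6.25 and -6.81 in C middle intestine, a difference of 7.63 ± 0.40 (adjusted p = 1.95e-09). The probes of Tp63 thus gave different pictures, and which transcripts each one detects was not tested. Psapl1, which read 3.89, 1.26, 3.87 and 3.93 in C stomach, differed by 9.10 ± 0.53, and by 9.76 without replicate 2. S100a7l2 was not well above background in intestine and at least 202.3-fold higher in stomach (means 1.86 and -5.99, adjusted p = 1.56e-06). The difference in S100a7l2 was 7.85, and 4.24 with normexp.

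The list of retinoid, alcohol and aldehyde oxidation genes had 8 of 13 lower in stomach and 3 higher, with a median of -1.16. The 3 higher ones, Adh7, Aldh3a1 and Aldh1a1, had the largest differences of the list. Adh7, the alcohol dehydrogenase of the upper digestive tract, read 4.96, 3.55, 5.03 and 4.86 in C stomach and -4.80, -4.69, -4.77 and -3.15 in C middle intestine, a difference of 8.95 ± 0.61 (adjusted p = 3.48e-08). Aox4, an aldehyde oxidase outside the list, was not well above background in intestine and at least 332.9-fold higher in stomach (means 4.89 and -3.77, adjusted p = 7.04e-12). The difference in Aox4 was 8.66, and 5.11 with normexp. Aldh3a1 and Aldh1a1 differed by 5.25 and 3.79 in the ratio, and Aldh3a1 by 7.13 in Cy5. Among the 8 lower were Rbp2, the cellular retinol carrier, at -3.52 ± 0.19 and Lrat, which esterifies retinol, at -2.84. Of the other genes with the largest positive differences, Smim38, Fer1l4 and Pdia2, an isomerase known from pancreas, differed by 8.24, 8.20 and 7.97.

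Genes known from the exocrine pancreas were higher in stomach for 10 of 13, with list means between -0.38 and 0.30 in C stomach and between -3.32 and -2.92 in C middle intestine. Ptf1a, the acinar factor, was not well above background in intestine and at least 71.45-fold higher in stomach, where it read 4.53, 4.73, 4.28 and 4.39 (means 4.48 and -1.93, adjusted p = 3.4e-10). The difference in Ptf1a was 6.41, and 3.33 with normexp. Clps, the cofactor of pancreatic lipase, read 1.49, 3.53, 0.72 and 0.07 in C stomach and differed by 5.95, and by 5.26 without replicate 2. Of the enzymes that define acinar tissue, Amy2a3, an amylase, read between -4.08 and -1.57 in C stomach and between -5.89 and -5.08 in C middle intestine (difference 2.89, adjusted p = 0.00283), and Prss1, a trypsinogen, read between -4.09 and -3.09 in C stomach and between -4.27 and -1.33 in C middle intestine (difference -0.68, adjusted p = 0.454).

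Muscle genes were the least even part of the stomach arrays. The mean over 15 striated muscle genes was 3.19, -0.97, 2.86 and 3.56 in the 4 stomach replicates and between -1.05 and -0.82 in the intestine. The values of replicate 2 thus lay within the intestinal range, whereas the other 3 lay far above it. With all arrays 12 of 15 were higher in stomach with a median of 3.15, and without replicate 2, 13 were, with a median of 4.21. Tnnc2, a fast-muscle troponin, read 3.52, -1.57, 2.89 and 3.90 and differed by 5.18 ± 0.98 (adjusted p = 0.000672), and by 6.43 without that array. Cox8b, the muscle form of a respiratory chain subunit, read 6.49, 0.20, 5.88 and 6.95 in C stomach and 0.09 to 1.77 in C middle intestine. The difference in Cox8b was 3.98, and 5.54 without replicate 2. Smooth muscle genes ran the other way, with 5 of 13 lower in stomach (median -1.36), and 12 when only the C arrays were fitted. The count of 5 fell to 2 without any one of C stomach replicates 1, 2 and 4 or C middle intestine replicates 1, 2 and 4. The C arrays of the tissues did not overlap for 9 of the 13 genes, beside 43.7% of all probes. Actg2, the enteric smooth muscle actin, differed by -1.64 (adjusted p = 0.0391) and lost its call without any one of the same 6 arrays (adjusted p of 0.0624 to 0.109). Acta2, the vascular and visceral smooth muscle actin, differed by -1.49 (adjusted p = 0.0515) and was called without C middle intestine replicate 3 (-1.71, adjusted p = 0.0438). The part of muscle content in other differences was not tested.

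**Figure D3:**
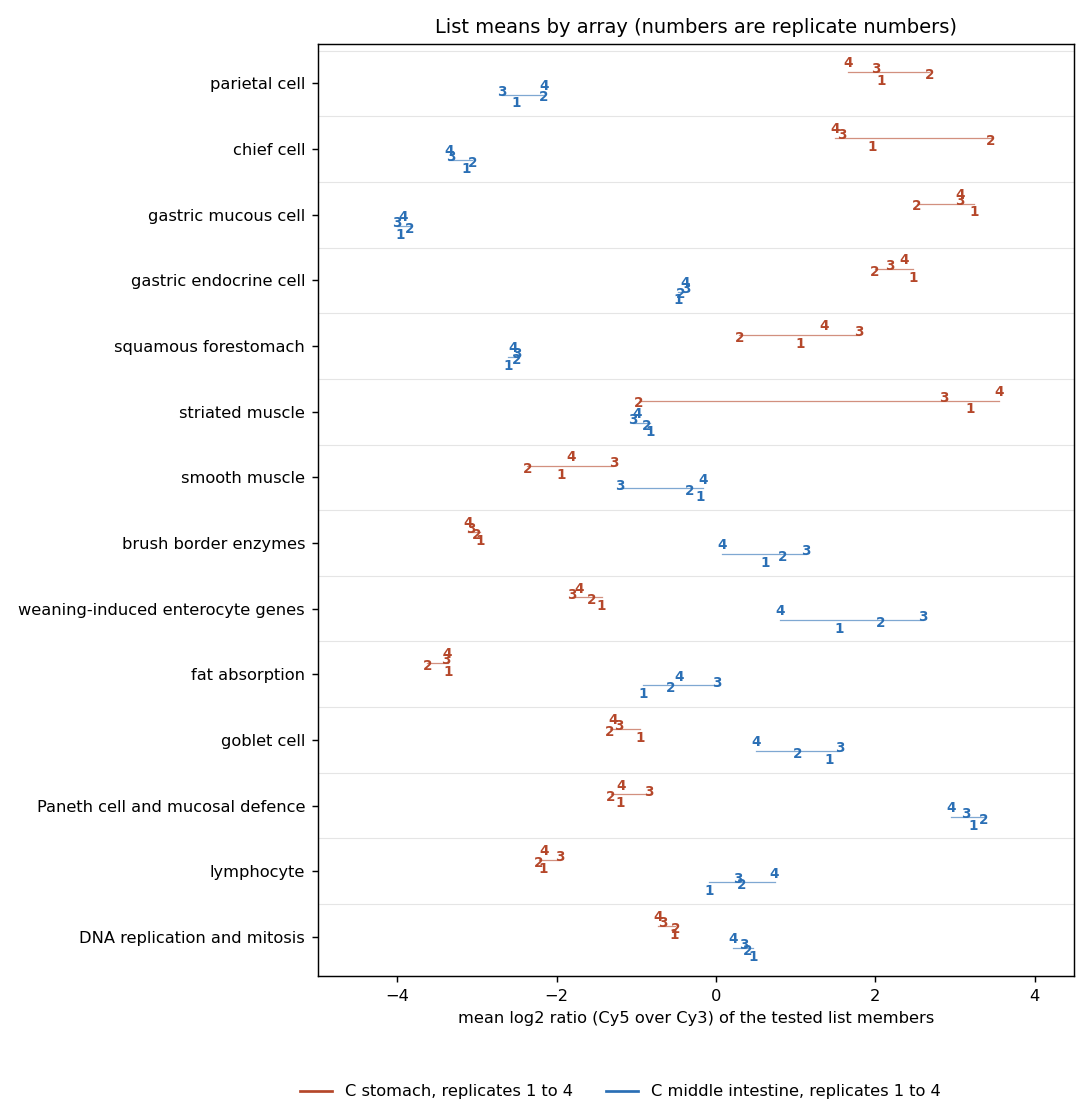
The horizontal axis is the mean log2 ratio of the tested members of each list on 1 array, the digits are replicate numbers, and the lines span each group (upper, C stomach; lower, C middle intestine). C stomach replicate 2 sits at -0.97 for striated muscle and at 3.45 for chief cells, and C middle intestine replicate 4 at 0.08 for brush border enzymes.

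Genes of DNA replication and mitosis were lower in stomach without exception, 22 of 22, with no overlap between the groups for any. The differences were modest, from -1.44 to -0.40, with a median of -0.92. Mki67, the proliferation antigen, read -0.88, -0.67, -0.97 and -1.04 in C stomach and 0.15, 0.40, -0.43 and 0.14 in C middle intestine (difference -0.95 ± 0.19, adjusted p = 0.000936). Cdk1, the mitotic kinase, differed by -1.03 and Tyms, which makes thymidylate, by -1.28. Crypt genes were mixed, with 4 of 13 lower and 2 higher. Olfm4, a crypt base marker, differed by -6.14 ± 0.21 (adjusted p = 2.68e-11) and Ascl2 by -1.74, whereas Lgr5, the stem cell marker that both organs use, read -0.40 to 1.38 in C stomach and 0.54 to 1.05 in C middle intestine (difference -0.25, adjusted p = 0.516). A dimmer probe of Lgr5, above background on 2 of 4 stomach arrays, was lower in stomach (difference -1.73, adjusted p = 0.00954).

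Cholesterol synthesis and uptake genes were higher in stomach for 14 of 17 and lower for 1, with a median of 0.87 and a lowest difference of -6.19. Insig1, the sterol sensor partner, and the synthesis enzymes Sqle and Hmgcs1 differed by 2.06, 1.69 and 1.44. Respiratory chain subunits were higher for 25 of 64, at a median of 0.32, and lower for 1. Without C stomach replicate 2, 14 were higher, and without C middle intestine replicate 1, 2 or 4, 15 or 16 were. Of 17 enteric neuron and glia genes 8 were lower in stomach, 1 was higher and 8 were not called, with a median of -0.60. Among the lower ones were Vip and Gal, neuropeptides of enteric neurons, at -1.85 and -2.83. Ribosomal proteins, with 15 of 90 lower and 6 higher and a median of -0.04, stayed below the shares of probes called higher and lower. The arrays of the tissues did not overlap for 43 of the 90, beside 43.7% of all probes. Without C stomach replicate 3 or 4 or C middle intestine replicate 1 or 2 the lower ones numbered 6 to 8, and without C stomach replicate 4 the higher ones numbered 3.

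The remaining lists stand beside shares of 22.7% called higher and 22.3% called lower over all probes. Collagens and matrix had 2 of 17 higher and 1 lower, the mast cell list 2 of 7 higher, the blood list 1 of 6 higher, the liver list 1 of 8 higher and 1 lower, and xenobiotic metabolism 6 of 23 in each direction, with 3 lower when C middle intestine replicate 3 was left out. Lysosomal and uptake genes of the suckling enterocyte had 4 of 15 lower, which included Lct, Cubn and Amn, and 2 higher. Of 5 adipocyte genes 3 were higher and 1 lower, and 2 were higher whichever single C array was left out. Adipoq, the gene of adiponectin, read 1.99 to 2.73 in C stomach and -3.38 to 0.30 in C middle intestine (difference 4.26, adjusted p = 0.000833).

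The same difference was measured in the OH rats, whose 8 arrays took no part in the choice of the groups and were hybridised on other slides, scanned on another day. The filter and each probe's spread were taken from the arrays of C and OH together, so calls in both are not independent. There 8090 probes were called (38.2%), and 6593 were called in the same direction in both groups of rats, which is 69.3% of the calls in C and 81.5% of those in OH. Opposite calls were made for 3 probes. Gkn2 differed by 8.45 in OH, Cdx2 by -6.59, Si by -6.32, Ghrl by 4.31 and Reg3b by -7.10. Striated muscle genes, 12 of 15 of which were called in C, had 3 of 15 called in OH with a median of 1.21, and smooth muscle genes had none called with a median of -0.17. The difference between the tissue effects in C and OH was tested for each probe, and none passed an adjusted p under 0.05, while 1238 had an unadjusted p under 0.05.

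**Figure D4:**
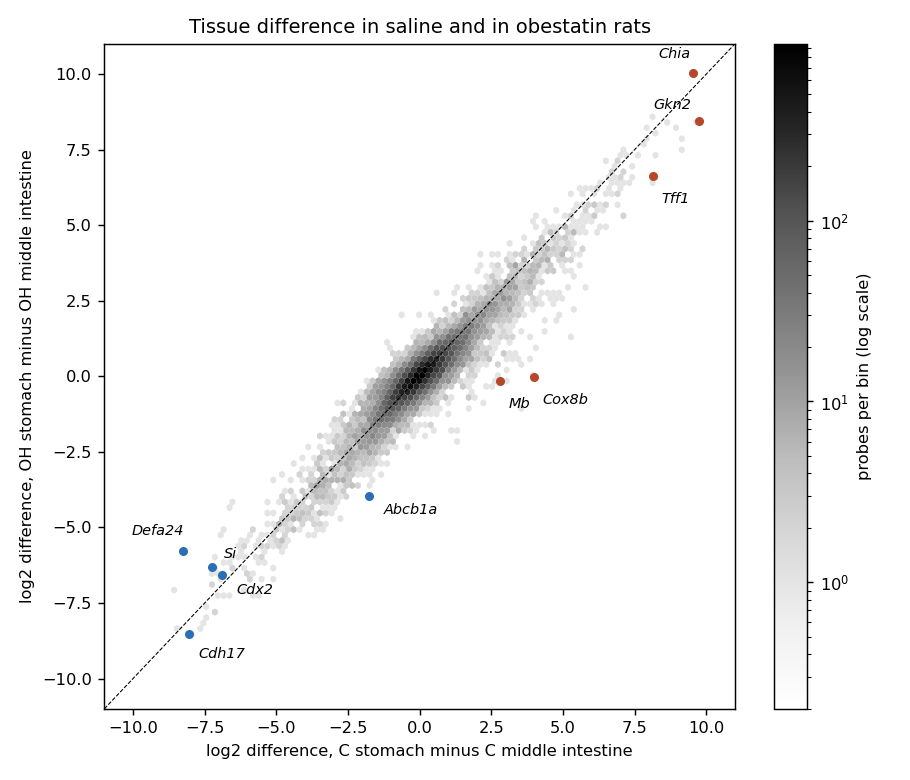
The axes are the log2 differences between stomach and middle intestine in C rats (horizontal) and in OH rats (vertical), grey shading counts probes per bin on a log scale, and 10 genes are marked. Si (-7.24 and -6.32) and Gkn2 (9.76 and 8.45) lie near the dashed line of equal differences, and Cox8b (3.98 and -0.01) lies below it.

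**Figure D5:**
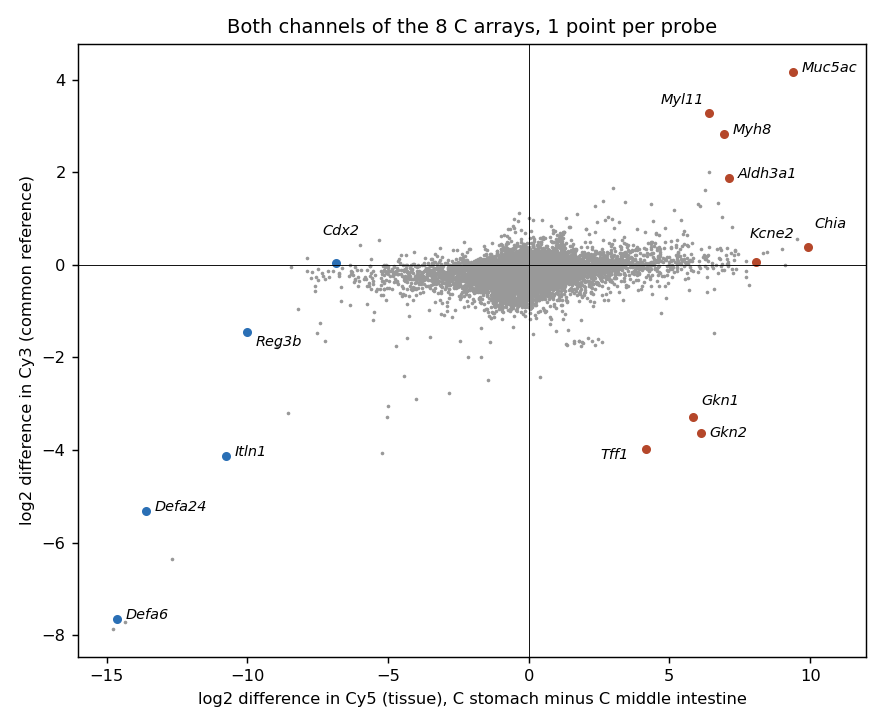
Each point is 1 probe, with the difference between both C slides in the tissue channel (Cy5, log2) on the horizontal axis and in the reference channel (Cy3, log2) on the vertical axis. Most probes lie near 0 on the vertical axis, and Defa6 (-7.66), Defa24 (-5.33), Tff1 (-3.99) and Muc5ac (4.17) lie far from it.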

How the data were processed

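RNA of each tissue (Cy5) was hybridised with a common reference pool (Cy3) on 2-colour Agilent rat gene expression arrays, with no dye swap. Signals were extracted with Agilent Feature Extraction, version 10.10.1.1 per the file headers and 10.7.3.1 per the labels. The deposited intensity values are the processed Cy5 and Cy3 signals, from which the authors' software had subtracted background and removed dye bias by Lowess. The deposited log10 ratios of the authors' table served as an alternative. Equal spots of a probe were averaged and spots marked as uneven were left out. Probes were kept if every array of at least 1 of the 4 groups read them well above background in Cy5, which left 21174 of 30367 probes. Of these, 440 were well above background on all C stomach arrays and on no C middle intestine array, and 88 the reverse, whatever the OH arrays read. Well above background in Cy5 were 73.5% to 77.6% of the spots in C stomach and 69.4% to 74.1% in C middle intestine. No spot was saturated, and the number of arrays limits the precision.

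With limma 3.58.1 (R 4.3.3), a model with a mean for each group was fitted to the log2 ratios of all 16 arrays, so 4 groups shared each probe's spread, and p-values were adjusted by Benjamini-Hochberg over all probes kept. A bound ("at least N-fold") sets the mean of the brighter group against the dim one raised to the lowest signal among probes well above background, in Cy5 and in the ratio, and is the smaller of both, and the p beside it is the fit's. Probe symbols were those of the array design, built on rn4, updated through RefSeq accessions for 15606 of 18864 accessions. Promoters came from RefSeq and were found for 470 of 618 tested list genes. The genes named are the 15 with the largest difference in each direction among called, non-overlapping probes that were well above background on all arrays of the higher tissue, then up to 5 members with the largest absolute difference and up to 4 not called in each of 39 lists, the lists' defining markers, and genes of the ghrelin and obestatin system. Other members were named where the text describes a pathway, or where a count of calls was small, after their values were seen. The lists, members and comparison were chosen with earlier results of these data known. Some genes of the lists are counted but not reported here by name. The script was tested on simulated data. Alternatives concerned background and dye correction, scaling, the filter, the model, the threshold and the leaving out of single arrays. The study's methods describe 4 rats per group whose tissues covered stomach and middle intestine, and also let each array stand for a specific rat. No source says whether arrays with the same replicate number came from 1 rat.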

Additional observations from a re-analysis of the deposited data

Results flagged for a closer look

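In each group of 4 arrays, the highest or lowest value was set against the gap to its nearest neighbour for every gene and list named, 398 groups in all, and 24 stood off by more than Dixon's 95% critical value. Chance flags about 1 in 20 groups.

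C stomach replicate 2 was the array that stood off low in 10 of the 24. The list means concerned were fat absorption at -3.62, ileal bile acid recovery at -0.882 and striated muscle at -0.968. The genes were Adh7 at 3.55, Adipoq at 1.99, Cox8b at 0.199, Dgat2 at -3.53, Gast at -2.01, Map2k3 at 0.028 and Psapl1 at 1.26. The mean of the chief cell list on the same array was the highest of the stomachs. Oat stood off high at -2.82 in C stomach replicate 3.

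In C middle intestine, replicate 4 stood off high in Adh7 at -3.15, Apob at -0.593, Asl at -1.32, Irx2 at -2.09, Slc11a2 at -0.25 and Slc9a4 at -1.97, and low in Slc15a1 at 1.16 and Slc51a at 2.63. Replicate 3 stood off high in the mean of the microvillus list at 0.242 and low in the mean of the smooth muscle list at -1.21, in Slc26a7 at -0.167 and in Tff2 at -5.5. Vip stood off high at 2.83 in replicate 1.

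The common reference, which takes no part in the grouping of the samples, differed in Cy3 between the slides of C stomach and C middle intestine for 2050 probes. Of these 120 were higher on the stomach slide and 1930 lower, and the median difference over all probes was -0.147.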

How the results depend on the processing

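Every called gene of the 160 named kept the sign of its difference under the 24 alternatives that gave a value, while Gata6, Lgr5 and Cd36, near 0 and not called, changed sign under some. Of 3801 values, 3706 kept their side of the threshold, 83 lost and 12 gained a call. Changes in size were counted for normexp with an offset of 50 and dye correction by loess. There 40 of 139 named differences of at least 1 fell by more than 1.5 times. Examples are Si from -7.24 to -3.67, Slc26a7 from 5.61 to 1.74 and Cd3e from -3.42 to -0.71. Which step of that alternative changed the sizes was not tested. The 9517 called probes became 7971 with the methods' ANOVA and Tukey test and 11731 with array weights, with 82.1% and 98.5% of the calls shared, and none of the calls turned into a call in the opposite direction under any alternative. Requiring a difference of at least 1 on the log2 scale left 4124 (2263 higher and 1861 lower), and an adjusted p under 0.01 left 6449. Without 1 array at a time 8089 to 9425 were called. Aquantile scaling left every ratio as it was, and the alternative without saturated spots was the same data, as none was saturated.

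Counts of list members that moved by more than 1.5 times were few. Without 1 array at a time they were 2 to 7 smooth muscle genes lower, 14 to 29 respiratory chain genes higher, 6 to 11 ribosomal proteins lower and 3 to 6 higher, and 3 to 7 xenobiotic genes lower. Cy5 alone gave 4 ribosomal proteins lower. Without a filter 3 smooth muscle genes and 9 ribosomal proteins were lower. Among probes above background in both C groups, 6 parietal genes and 5 pancreas genes were higher, and 3 lymphocyte, 4 retinoid and 3 Hox genes lower, since fewer were tested. With only the 8 C arrays, 12 smooth muscle genes and 8 ribosomal proteins were lower. A trended, robust spread gave 11 ribosomal proteins higher and 30 lower. Array weights gave 10 smooth muscle genes lower and 12 ribosomal proteins higher. Tukey's test gave 1 smooth muscle gene and 3 xenobiotic genes lower, with 11 ribosomal proteins higher and 29 lower. A difference of at least 1 left 7 replication and 3 MHC class II genes lower, 8 cholesterol genes and 1 respiratory gene higher, and 0 ribosomal proteins in either direction. An adjusted p under 0.01 left 1 smooth muscle gene, 3 xenobiotic genes, 5 retinoid genes and 4 ribosomal proteins lower, and 3 ribosomal proteins and 10 respiratory genes higher. The causes of the other moves were not tested.

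Same-numbered arrays deviated together weakly, with correlations of 0.058 to 0.245 in C and -0.123 to 0.322 in OH. Differently numbered arrays gave -0.161 to 0.076 in C and -0.341 to 0.304 in OH. In C the same-numbered values were thus mostly the higher ones, and in OH the ranges overlapped widely. No source states a pairing, so the main fit did not use the numbers, and whether they pair the tissues remains unknown. With the replicate number as a block 9533 probes were called, 8869 of them shared, and smooth muscle lower became 3, ribosomal proteins 3 higher and 8 lower. The block is hence given only here. Each tissue lay on 1 slide per treatment, and 4 arrays a group limit what could be called.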
